A study of Rattus norvegicus with 24 samples.

Results

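Genes of cellular iron handling were followed through day 7 skin wounds of diabetic rats: Fth1, Ftl1, Trf, Tfrc, Slc40a1, Slc11a1, Slc11a2, Hmox1, Ireb2 and Aco1. They were taken by name from the target lists of the deposited files, and all 10 were found among the 19962 gene targets of a whole-transcriptome GeoMx spatial assay, which counts indexed RNA probes released by light from chosen areas of a fixed section. Male SD rats had been made diabetic with STZ (streptozotocin) at 5 weeks of age and carried splinted full-thickness wounds of 8 mm, which were treated as CuNZ@Gel, Gel or Sham and taken on day 7. The diabetes and the wound were shared by all 3 groups, and the labels do not say what the Sham wounds received beyond their name. Each treatment had 2 numbered specimens, each specimen 2 regions named mac1 and mac2, and each region a Segment 2 and a Segment 1 area, which gave 8 areas per treatment and 24 in all. The labels do not name the antibodies that defined the segments or say what the short name of the regions stands for. They also do not say that a specimen is an animal, so the tests compare these specimens only. The spread they use is pooled largely over targets.

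Cells take up iron bound to transferrin through the transferrin receptor, move ferrous iron across membranes with divalent metal transporters, store it inside a shell of ferritin heavy and light chains, and release it through ferroportin. Haem oxygenase frees iron from haem, a large task for macrophages that clear red cells from a wound. A pair of RNA-binding regulators, encoded by Ireb2 and Aco1, block translation of ferritin mRNA and stabilise transferrin receptor mRNA when iron is scarce, so much of ferritin's known regulation acts on protein synthesis, which RNA probes do not see.

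The results turned on the ferritin genes, on Trf, which encodes transferrin, and on the pair Ireb2 and Aco1. Of the 10 members, 6 had an entry in the RefSeq promoter table of the rat build GRCr8, and the 250 bases before the start are shown for the 3 that moved between treatments. The start that the table uses for Ireb2 lies inside the annotated gene (chr8:64124152-64207702, plus strand), whereas the Trf and Aco1 windows end at the annotated edge of their genes. Trf is the mouse symbol for this gene. It was matched to rat Tf by a synonym, which the rat thyrotropin-releasing hormone gene Trh also lists. Capitals mark the letters TATAAA and the letters GGGCGG, searched on both strands, so that CCGCCC is the second motif on the other strand; the 2 motifs cannot overlap one another.
Trf (rat Tf), chr8:112695377-112695626, minus strand: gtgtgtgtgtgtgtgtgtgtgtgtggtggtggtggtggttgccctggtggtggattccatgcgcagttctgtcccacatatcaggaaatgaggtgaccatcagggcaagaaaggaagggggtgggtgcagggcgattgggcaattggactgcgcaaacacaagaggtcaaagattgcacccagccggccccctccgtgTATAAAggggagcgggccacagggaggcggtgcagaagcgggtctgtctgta
Ireb2, chr8:64160838-64161087, plus strand: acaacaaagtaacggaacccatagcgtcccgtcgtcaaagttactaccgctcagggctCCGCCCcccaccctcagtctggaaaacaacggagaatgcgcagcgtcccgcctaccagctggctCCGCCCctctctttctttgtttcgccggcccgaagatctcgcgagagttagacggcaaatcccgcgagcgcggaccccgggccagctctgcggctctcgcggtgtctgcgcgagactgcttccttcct
Aco1, chr5:60055645-60055894, plus strand: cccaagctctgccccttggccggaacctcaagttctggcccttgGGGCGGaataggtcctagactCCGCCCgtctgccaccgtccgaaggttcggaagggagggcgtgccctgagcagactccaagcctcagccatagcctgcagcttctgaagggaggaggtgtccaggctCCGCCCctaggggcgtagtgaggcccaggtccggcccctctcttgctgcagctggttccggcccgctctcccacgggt
The Trf window held 1 TATAAA, whose first letter lay at position -52 counted from the start, and no GGGCGG. The Ireb2 window held 2 GGGCGG and the Aco1 window 3, and neither held TATAAA. Over 33469 rat promoter windows of the same length, 12.9% held TATAAA and 30.5% held GGGCGG on either strand. The Ireb2 window had 27 CpG dinucleotides and the Aco1 window 14, against 8 in the Trf window and a median of 5 over all windows. These matches describe letters only, and no binding was measured.

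Values are the deposited scaled signal, in which 1 counted read was worth between 0.24 and 3.07 units, depending on the area. Totals ran from 86385 to 1476499 counts per area, with a median of 340370. Segment 2 had fewer counts than Segment 1 in 11 of the 12 regions, with medians of 170040 in Segment 2 and 533134 in Segment 1. As a floor for detection, the 99th percentile of 1116 olfactory and vomeronasal receptor targets, genes that skin should lack, was taken in each area, and it ran from 11.4 to 21.6. Fth1, Ftl1, Trf, Slc11a1, Slc11a2, Ireb2 and Aco1 lay above this background in all 24 areas. Tfrc, Slc40a1 and Hmox1 lay above it in 0 areas, so their values carry no reading of level. The macrophage list (Cd68, Csf1r, Lyz2 and others) summed to between 724 and 1535 in every area, with 5 of its 8 genes above background and Cd163 above it in 0 areas. None of the 5 keratinocyte, 5 endothelial, 4 adipocyte or 4 mast cell markers rose above background in at least 4 areas.

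**Figure D1:**
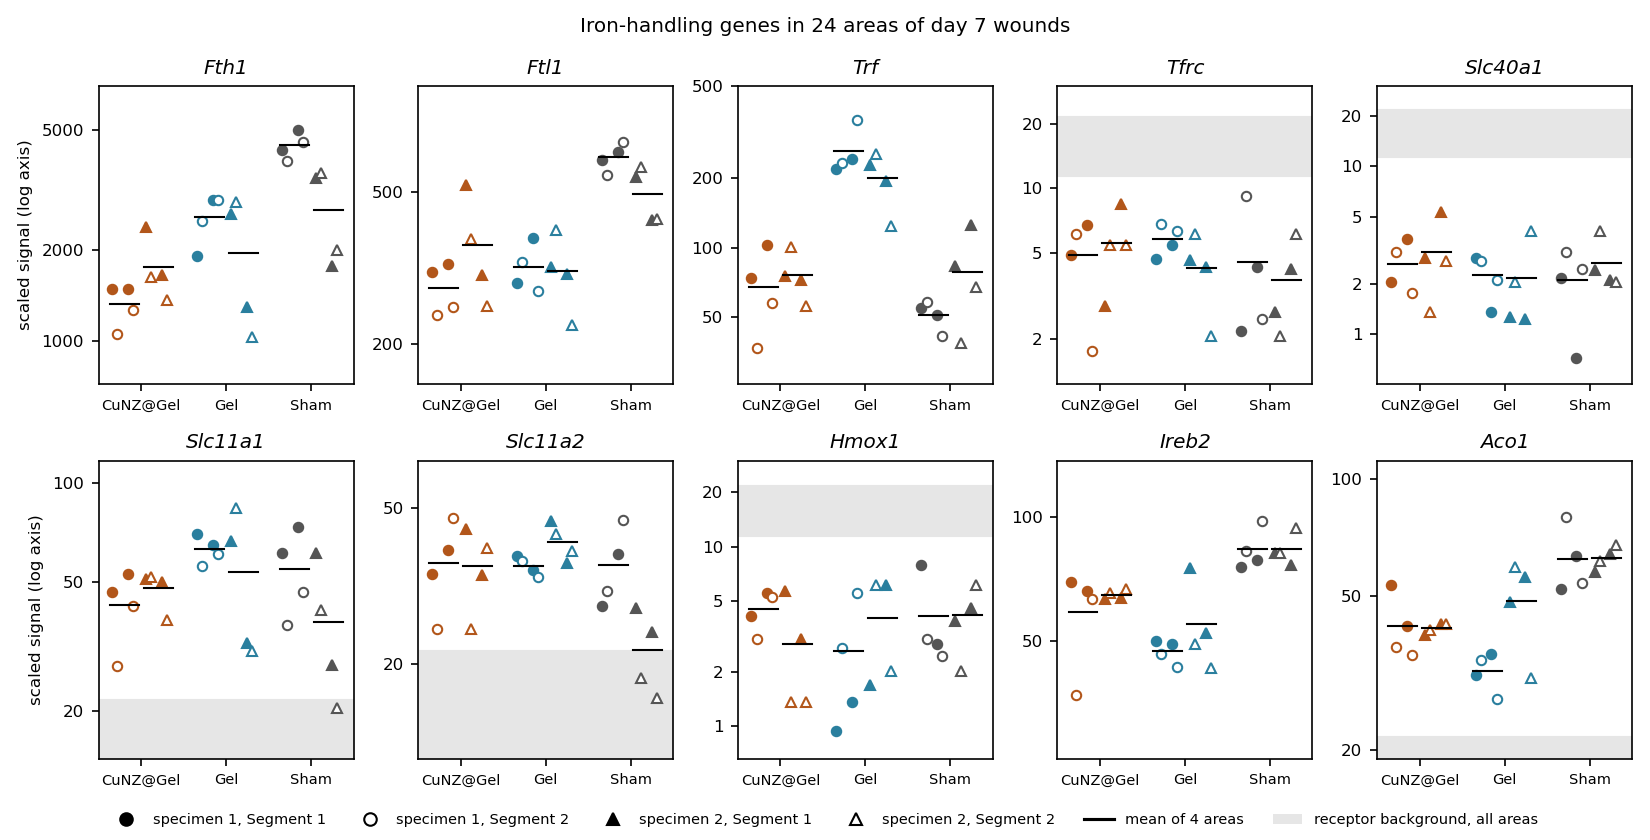
Scaled signal (log axis) of the 10 genes in each of the 24 areas, by treatment; circles and triangles are specimens 1 and 2, filled and open symbols Segments 1 and 2, black lines the mean of a specimen's 4 areas, and the grey band the range of the receptor background over areas. Trf stands high in Gel, Ireb2 is highest in Sham, and Tfrc, Slc40a1 and Hmox1 lie below the grey band throughout.

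Ferritin transcripts were lower in CuNZ@Gel wounds than in Sham wounds. Fth1, the ferritin heavy chain, which oxidises iron for storage, and Ftl1, the light chain, which helps form the mineral core, both fell in CuNZ@Gel against Sham, and Ftl1 also fell in Gel against Sham. Of the 10 members, 2 passed the test in CuNZ@Gel against Sham, both lower, where 1.31% of all 19728 targets tested were called (0.988% as lower) and 4.34% of the targets above background. In Gel against Sham 4 members passed, 3 lower and 1 higher, where 2.42% of all targets were called (1.8% as lower, 0.618% as higher) and 7.85% of those above background. Each test was limma's moderated test on specimen means of log2(signal + 1), with Benjamini-Hochberg adjustment over all targets and a threshold of 0.05. In areas of mixed cells, fewer cells of a type and less RNA per cell cannot be told apart.

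In CuNZ@Gel areas Fth1 ran from 1061 to 2384 (median 1491), with specimen means of 1329 and 1759. In Gel areas it ran from 1032 to 2937 (median 2571), with specimen means of 2573 and 1961. In Sham areas it ran from 1779 to 4978 (median 3775), with specimen means of 4444 and 2711. Both CuNZ@Gel specimens lay below both Sham specimens, although single areas overlapped, because the mac2 region of Sham specimen 2 gave only 2001 in Segment 2 and 1779 in Segment 1. Gel lay between the other treatments on average, and its specimen 2 was split: mac1 gave 2876 in Segment 2 and 2641 in Segment 1, while mac2 gave 1032 and 1296 in the same order. The mean was 1544 ± 304 in CuNZ@Gel, 2267 ± 433 in Gel and 3578 ± 1226 in Sham (SD of specimens, n = 2 each). Fth1 fell by 1.17 on the log2 scale in CuNZ@Gel against Sham (SE 0.21, limma adjusted p = 0.00104). The change was -0.67 in Gel against Sham (SE 0.21, limma adjusted p = 0.0960) and -0.50 in CuNZ@Gel against Gel (SE 0.21, limma adjusted p = 0.578), neither past the threshold. Leaving out 1 specimen, which leaves its group with a single specimen, moved the Gel change against Sham between -1.06 and -0.28. The Gel change was -1.06 without Sham specimen 2 and -0.92 without Gel specimen 1. The Fth1 call in CuNZ@Gel rested on a spread pooled over targets: limma used an SD of 0.208, against 0.411 among the Fth1 specimens themselves. Without Sham specimen 1 the Fth1 change in CuNZ@Gel was -0.78 (limma adjusted p = 0.234), and without CuNZ@Gel specimen 1 it was -0.97 (adjusted p = 0.169).

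Ftl1 was lower in both hydrogel groups than in Sham. Its signal ran from 239 to 523 (median 307) in CuNZ@Gel areas, from 225 to 399 (median 312) in Gel areas and from 423 to 677 (median 568) in Sham areas. Specimen means were 281 and 364 in CuNZ@Gel, 318 and 312 in Gel, and 619 and 494 in Sham. Every Gel area lay below every Sham area, a separation seen in 0.735% of all targets in this comparison, in this direction in 0.639%, and in 2.54% of those above background. One CuNZ@Gel area, Segment 1 of the mac1 region of specimen 2 at 523, reached into the Sham range, and the other 7 lay below it. Ftl1 fell by 0.82 on the log2 scale in Gel against Sham (SE 0.18, limma adjusted p = 0.0009515) and by 0.81 in CuNZ@Gel against Sham (SE 0.18, limma adjusted p = 0.00242). Between CuNZ@Gel and Gel the difference was 0.01, with a 95% interval of -0.34 to 0.36. Without Sham specimen 1 the changes were -0.65 in Gel (limma adjusted p = 0.2504) and -0.64 in CuNZ@Gel (adjusted p = 0.465). The CuNZ@Gel change also missed the threshold without CuNZ@Gel specimen 1 (-0.65, adjusted p = 0.497) and without CuNZ@Gel specimen 2 (-0.98, adjusted p = 0.0674).

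Red cell transcripts moved with the ferritin genes. The red cell list summed to between 26.3 and 215 in CuNZ@Gel areas, between 28.6 and 92.0 in Gel areas and between 603 and 1814 in Sham areas, with 6 of its 8 genes measured and 2 above background, Hba-a1 and Hbb-b2, which both encode globin chains. The fibroblast list summed to between 7181 and 12351 in CuNZ@Gel areas, between 1903 and 11179 in Gel areas, and between 10396 and 32084 in Sham areas. Col3a1, its highest gene (median 8483 over areas), did not pass against Sham, at -1.54 in Gel (limma adjusted p = 0.479) and -0.54 in CuNZ@Gel (adjusted p = 0.8405). Col1a1, Col1a2, Pdgfra and Dcn did not pass either, and Dcn went the other way, at 0.49 and 0.30. Lum alone passed, at -1.13 in Gel (limma adjusted p = 7.155e-07) and -0.80 in CuNZ@Gel (adjusted p = 0.0029). Macrophage sums overlapped widely, at 724 to 1044 in CuNZ@Gel, 734 to 1506 in Gel and 809 to 1535 in Sham. Among the macrophage markers, Lyz2 at 0.71 (limma adjusted p = 0.0211) and Mrc1 at -0.81 (adjusted p = 0.009528) passed the test in CuNZ@Gel against Sham, and neither did in Gel against Sham. The part of any of these lists in the ferritin differences was not tested.

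The ferritin chains followed each other across areas, with a Pearson r of 0.85 between Fth1 and Ftl1 over the 24 areas, which share specimens and slides and are no independent replicates. Their ratio within an area was least spread in CuNZ@Gel. On the log2 scale Ftl1 over Fth1 averaged -2.27 ± 0.04 in CuNZ@Gel, -2.78 ± 0.32 in Gel and -2.62 ± 0.31 in Sham (SD of specimens, n = 2 each). It kept within -2.44 to -2.12 in CuNZ@Gel areas, against -3.41 to -2.08 in Gel areas and -2.97 to -2.07 in Sham areas. Probes differ between genes, so this ratio serves to compare areas and does not give the amount of one chain over the other.

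**Figure D2:**
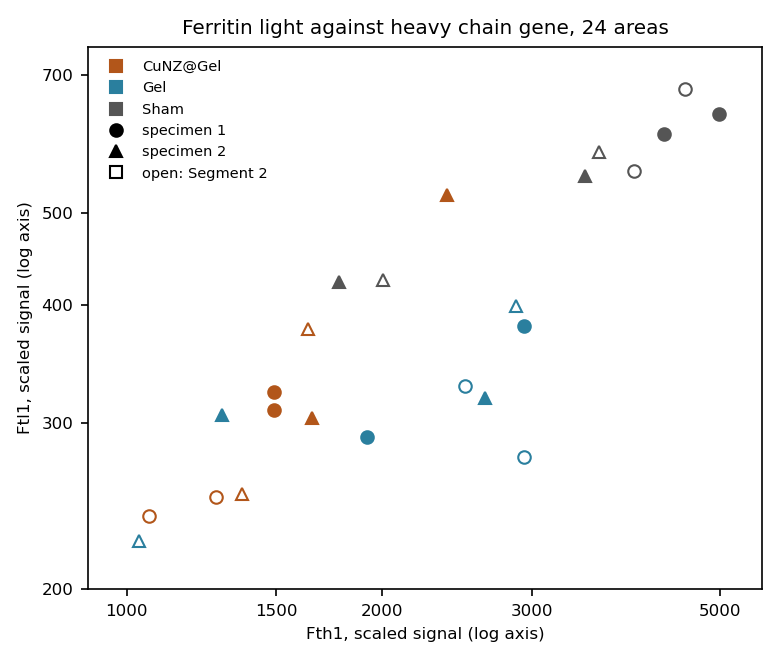
Scaled signal of Ftl1 (vertical) against Fth1 (horizontal), both on log axes, in the 24 areas; colours are treatments, circles and triangles specimens 1 and 2, open symbols Segment 2. CuNZ@Gel areas follow a narrow line, Gel areas reach the Fth1 values of the lower Sham areas at less Ftl1, and the mac2 region of Sham specimen 2 lies apart from the other Sham areas.

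Trf carried the largest difference among the members. In CuNZ@Gel areas Trf ran from 36.8 to 102 (median 73.6), with specimen means of 67.9 and 76.2. In Gel areas it ran from 125 to 358 (median 231), with specimen means of 263 and 201. In Sham areas it ran from 38.8 to 125 (median 56.5), with specimen means of 51.5 and 78.7. Gel was thus the high group: the lowest Gel area, Segment 2 of mac2 in specimen 2, was at 124.7, and the highest Sham area, Segment 1 of mac2 in specimen 2, at 125.1, with no other overlap. Trf averaged 232 ± 44.1 in Gel against 65.1 ± 19.2 in Sham (SD of specimens, n = 2 each) and rose by 1.86 on the log2 scale (SE 0.19, limma adjusted p = 7.86e-15). In CuNZ@Gel it averaged 72.1 ± 5.94 and fell by 1.69 against Gel (SE 0.19, limma adjusted p = 2.06e-12). It was the 1 member of 10 called in that comparison, where 0.943% of all targets were called (0.319% as lower) and 3.24% of those above background. All 8 CuNZ@Gel areas lay below all 8 Gel areas, and areas were separate for 0.279% of all targets, in this direction for 0.0811%, and for 0.972% of those above background. Between CuNZ@Gel and Sham the difference was 0.18, with a 95% interval of -0.19 to 0.55 (limma adjusted p = 0.804). For Trf limma used an SD of 0.187, against 0.278 among the Trf specimens themselves. Both Trf calls held under every alternative that was run, with values of 1.57 to 2.16 in Gel against Sham and -1.93 to -1.44 in CuNZ@Gel against Gel. The macrophage marker Mrc1 also fell in CuNZ@Gel against Gel, by 1.14 (limma adjusted p = 1.532e-05). Other markers of that list went the other way without passing: Lyz2 at 0.60 (limma adjusted p = 0.105), Csf1r at 0.12 and Fcgr1, under background in every area, at 0.36. Cd68 was at -0.13, and the macrophage sums of the 2 groups overlapped. The part of these markers in the Trf difference was not tested.

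The targets most like Trf over the 24 areas, among 4302 targets above background in at least 12 areas, were Mt1, a metallothionein that binds zinc and copper (Pearson r 0.91), Enc1 (0.87) and Prg4, the lubricin gene (0.86). Fth1 was most like Dab2, an endocytic adaptor (0.92), Atp6v0c, a subunit of the proton pump that acidifies endosomes and lysosomes (0.90), and Arg1, arginase of alternatively activated macrophages (0.86). Ftl1 was most like Galnt1 (0.87), Arpc3 (0.87) and the globin gene Hba-a1 (0.86). These values describe areas that share specimens, and they were read from all treatments together. Depth was weakly related to the members: r with log2 of the total count lay between 0.08 and 0.35 for the 7 above background.

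Tfrc, the transferrin receptor, lay under the background in every area, with 1 to 15 counts. Its signal ran from 1.75 to 8.43 in CuNZ@Gel, from 2.04 to 6.81 in Gel and from 2.04 to 9.20 in Sham. Slc40a1, which encodes ferroportin, the cellular iron exporter, ran from 1.36 to 5.37 in CuNZ@Gel, from 1.23 to 4.09 in Gel and from 0.72 to 4.09 in Sham, with 1 to 10 counts. Hmox1, the inducible haem oxygenase, ran from 1.36 to 5.66 in CuNZ@Gel, from 0.94 to 6.13 in Gel and from 2.04 to 7.94 in Sham, with 1 to 16 counts. Tfrc stood at a single count in 4 areas, Slc40a1 in 8 and Hmox1 in 8. At such signals no difference was detectable for these 3 genes, and a probe that reads the rat transcript poorly cannot be told apart from a low level.

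The divalent metal transporters did not pass the test between any treatments on the deposited scale. Slc11a1 encodes NRAMP1, which moves metal ions out of the phagosome of macrophages and neutrophils. It ran from 27.6 to 52.7 (median 48.2) in CuNZ@Gel areas, from 30.7 to 83.8 (median 62.8) in Gel areas and from 20.4 to 73.6 (median 43.7) in Sham areas. The 3 ranges overlapped, and the specimen means were 42.2 and 47.7 in CuNZ@Gel, 62.8 and 53.3 in Gel, and 54.6 and 37.5 in Sham. The log2 change was 0.05 in CuNZ@Gel against Sham (95% interval -0.35 to 0.44), 0.36 in Gel against Sham (-0.03 to 0.75) and -0.32 in CuNZ@Gel against Gel (-0.71 to 0.07). Slc11a2 encodes DMT1, which imports ferrous iron at the plasma membrane and out of endosomes. It ran from 24.5 to 47.3 (median 36.6) in CuNZ@Gel areas, from 33.4 to 46.5 (median 37.3) in Gel areas and from 16.4 to 46.6 (median 28.0) in Sham areas. Specimen means were 36.3 and 35.5 in CuNZ@Gel, 35.7 and 41.1 in Gel, and 35.9 and 21.7 in Sham, so the low Sham median came from specimen 2. Its log2 change was 0.34 in CuNZ@Gel against Sham (limma adjusted p = 0.579), 0.47 in Gel against Sham (adjusted p = 0.308) and -0.12 in CuNZ@Gel against Gel (adjusted p = 0.994). In Gel against Sham the Slc11a2 change ran from 0.11 to 0.82 when 1 specimen was left out, and it passed after quantile scaling (0.67, limma adjusted p = 0.0372).

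**Figure D3:**
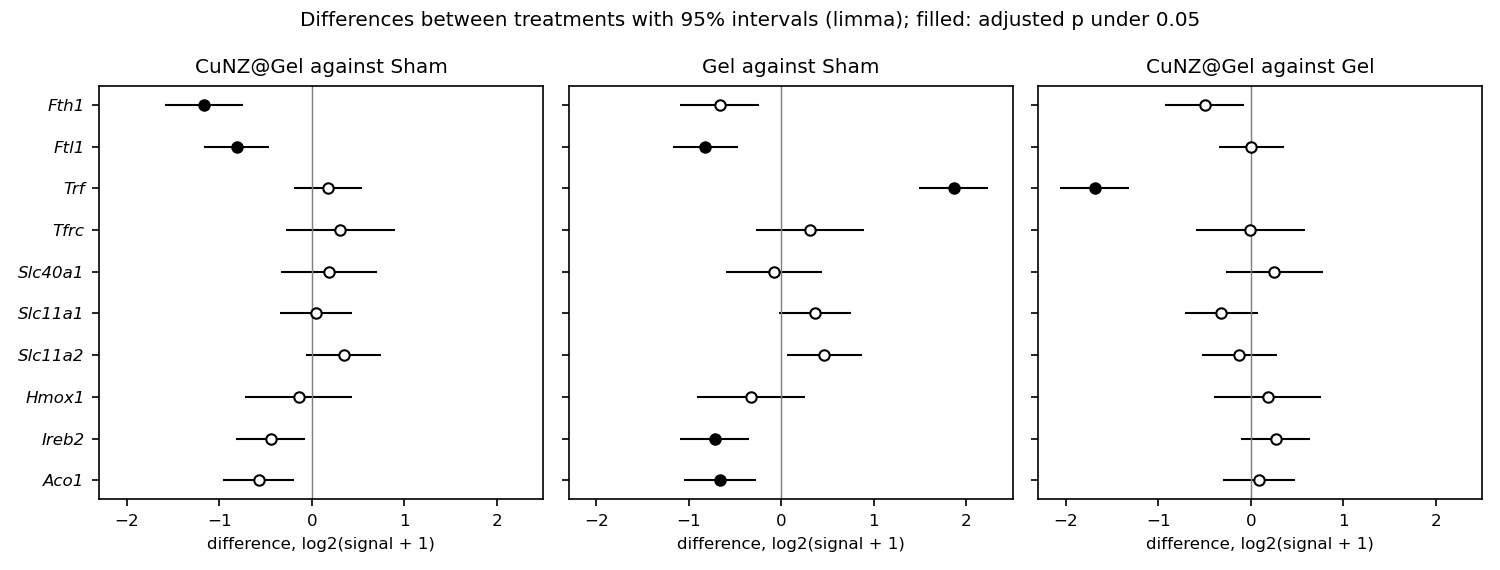
Differences between treatments for the 10 genes on the log2(signal + 1) scale, with 95% intervals from the limma fit of 6 specimens; filled points had an adjusted p under 0.05. Ftl1 and Fth1 lie left of 0 in CuNZ@Gel against Sham, Trf lies right of 0 in Gel against Sham at 1.86 and left of 0 in CuNZ@Gel against Gel at -1.69.

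Ireb2 and Aco1 were lower in Gel than in Sham. Ireb2 encodes IRP2, a regulator that is degraded when iron is plentiful. Aco1 encodes IRP1, which works as cytosolic aconitase when it carries an iron-sulfur cluster and binds RNA when it has lost it. Ireb2 ran from 36.8 to 69.5 (median 64.5) in CuNZ@Gel areas, from 42.9 to 75.3 (median 49.1) in Gel areas and from 75.7 to 98.1 (median 81.9) in Sham areas. All CuNZ@Gel areas and all Gel areas lay below all Sham areas. The highest Gel area, Segment 1 of mac1 in specimen 2 at 75.28, nearly met the lowest Sham area, Segment 1 of mac1 in specimen 1 at 75.75. In Gel against Sham the areas were separate for 0.735% of all targets, in this direction for 0.639%, and for 2.54% of those above background. In CuNZ@Gel against Sham the areas were separate for 0.897% of all targets, in this direction for 0.75%, and for 2.95% of those above background. Specimen means were 58.9 and 64.8 in CuNZ@Gel, 47.1 and 54.8 in Gel, and 83.8 and 83.5 in Sham. Ireb2 fell by 0.72 on the log2 scale in Gel against Sham (SE 0.19, limma adjusted p = 0.0128). In CuNZ@Gel against Sham its change of -0.45 did not pass (SE 0.19, limma adjusted p = 0.332), nor did the 0.27 of CuNZ@Gel against Gel (95% interval -0.10 to 0.64).

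Aco1 ran from 35.0 to 53.1 (median 41.3) in CuNZ@Gel areas, from 27.1 to 59.3 (median 34.7) in Gel areas and from 51.9 to 79.7 (median 62.4) in Sham areas. Specimen means were 41.7 and 41.2 in CuNZ@Gel, 31.9 and 48.5 in Gel, and 62.3 and 62.6 in Sham. The CuNZ@Gel and Sham specimens lay close to their partners, and Gel specimen 2 stood between the Sham specimens and Gel specimen 1. Aco1 fell by 0.67 on the log2 scale in Gel against Sham (SE 0.20, limma adjusted p = 0.0402). Its changes of -0.58 in CuNZ@Gel against Sham (SE 0.20, limma adjusted p = 0.150) and 0.09 in CuNZ@Gel against Gel (95% interval -0.30 to 0.48) did not pass. The Gel call was lost without any 1 of the specimens except Gel specimen 2, and it was -0.39 without Gel specimen 1 (limma adjusted p = 0.632). The Ireb2 call in Gel was lost without Sham specimen 1 (-0.72, adjusted p = 0.151), Sham specimen 2 (-0.72, adjusted p = 0.118) or Gel specimen 1 (-0.63, adjusted p = 0.143). When areas were rescaled by quantiles, the changes in Gel against Sham were -0.42 for Ireb2 (limma adjusted p = 0.203) and -0.41 for Aco1 (limma adjusted p = 0.319). Of 23 alternatives, the Gel call was lost in 9 for Ireb2 and in 14 for Aco1. Both were lost with edgeR, with DESeq2 and with limma without trend and robust.

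Ireb2 and Aco1 had a Pearson r of 0.74 over the 24 areas, and both went with Ftl1 (0.71 and 0.68) more closely than with Fth1 (0.49 and 0.44). Trf ran opposite to Ireb2 (r -0.52). Ireb2 was most like Ergic3 (0.93), Tpm1, a tropomyosin (0.91), and Ctnnb1, which encodes beta-catenin (0.89), and Aco1 was most like the ubiquitin gene Ubb (0.90), Dctn2 (0.88) and Arhgap1 (0.87). The smooth muscle and pericyte list summed to between 309 and 672 in CuNZ@Gel areas, between 30.4 and 369 in Gel areas and between 542 and 1011 in Sham areas. That is the order of groups seen for Ireb2, but the Gel specimens stood apart, at 50.5 and 236. None of its genes passed against Sham in either hydrogel group. In Gel, Acta2 was at -3.43 (limma adjusted p = 0.316), Rgs5 at -2.40 (adjusted p = 0.498) and Myh11, under background in every area, at -0.23. Cspg4 went the other way, at 0.19 in Gel and 0.71 in CuNZ@Gel. The part of this list in the Ireb2 and Aco1 values was not tested.

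The direction of the 7 members above background has to be read against a general shift. The median log2 change of the 5554 targets above background was -0.15 in Gel against Sham, -0.15 in CuNZ@Gel against Sham and -0.00 in CuNZ@Gel against Gel. The 7 members had medians of -0.67, -0.45 and -0.12 in those comparisons, and all 10 had -0.20, -0.05 and 0.00. Rescaling the areas by quantiles brought the medians of the targets above background to 0.01, -0.02 and -0.03. It moved the share of lower targets among all calls to 51.5% in Gel against Sham and 50.6% in CuNZ@Gel against Sham, against 74.5% and 75.3% on the deposited scale (53.5% and 49.5% after median scaling). Under quantile scaling Ftl1 fell by 0.43 in Gel against Sham (limma adjusted p = 0.0154) and Slc11a2 passed there at 0.67 (adjusted p = 0.0372), while Fth1 at -0.71 (limma adjusted p = 0.733) and Ftl1 at -0.39 (adjusted p = 0.0812) no longer passed in CuNZ@Gel against Sham. No called member changed direction under either rescaling.

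No member passed the test between segments. In Segment 2 against Segment 1 limma called 0 of 10 members, as did edgeR and DESeq2 on recovered counts, where limma called 1.93% of all targets and 5.49% of those above background. At an unadjusted p under 0.05, 2 members passed in limma, Trf and Slc11a1. Slc11a1 had a change of -0.33 (SE 0.12, limma adjusted p = 0.148) and was lower in Segment 2 in 10 of 12 regions. Its signal ran from 20.4 to 83.8 (median 41.5) in Segment 2 and from 27.7 to 73.6 (median 56.9) in Segment 1. Trf had a change of -0.32 (SE 0.12, adjusted p = 0.176), Ftl1 of -0.15 (SE 0.08, adjusted p = 0.334) and Fth1 of -0.12 (SE 0.06, adjusted p = 0.366). The targets above background had a median of -0.20 here, and after median scaling 42.1% of all segment calls were lower, against 82.4% on the deposited scale and 76.9% after quantile scaling. The changes of Fth1, Slc11a2, Ireb2 and Aco1 turned positive under both rescalings. Macrophage sums ran from 724 to 1506 (median 900) in Segment 2 and from 887 to 1535 (median 1063) in Segment 1. Of the 8 macrophage markers, 3 fell in Segment 2: Csf1r by 0.49 (limma adjusted p = 0.0006896), Mrc1 by 0.56 (adjusted p = 0.003852) and Lyz2 by 0.33 (adjusted p = 0.0311), none of them past the threshold after quantile scaling. Their part in the segment values of the members was not tested.

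Whether the segment difference varied with treatment was tested as an interaction, in which limma called 0 of 10 members (2 at an unadjusted p under 0.05, Fth1 and Ftl1) and 0.0507% of all targets, and edgeR and DESeq2 called 0 members. Fth1 came nearest, with an F of 10.9 (limma adjusted p = 0.106). In CuNZ@Gel, Fth1 was lower in Segment 2 in 4 of 4 regions, by a mean log2 difference of -0.38. The mean difference was 0.04 in Gel and -0.01 in Sham, each lower in 2 of 4 regions. Ftl1 was also lower in Segment 2 in 4 of 4 CuNZ@Gel regions (-0.37), against 2 of 4 in Gel (-0.10) and 1 of 4 in Sham (0.01), with a limma adjusted p of 0.870 for the interaction. With mac1 areas alone Fth1 passed the interaction test.

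**Figure D4:**
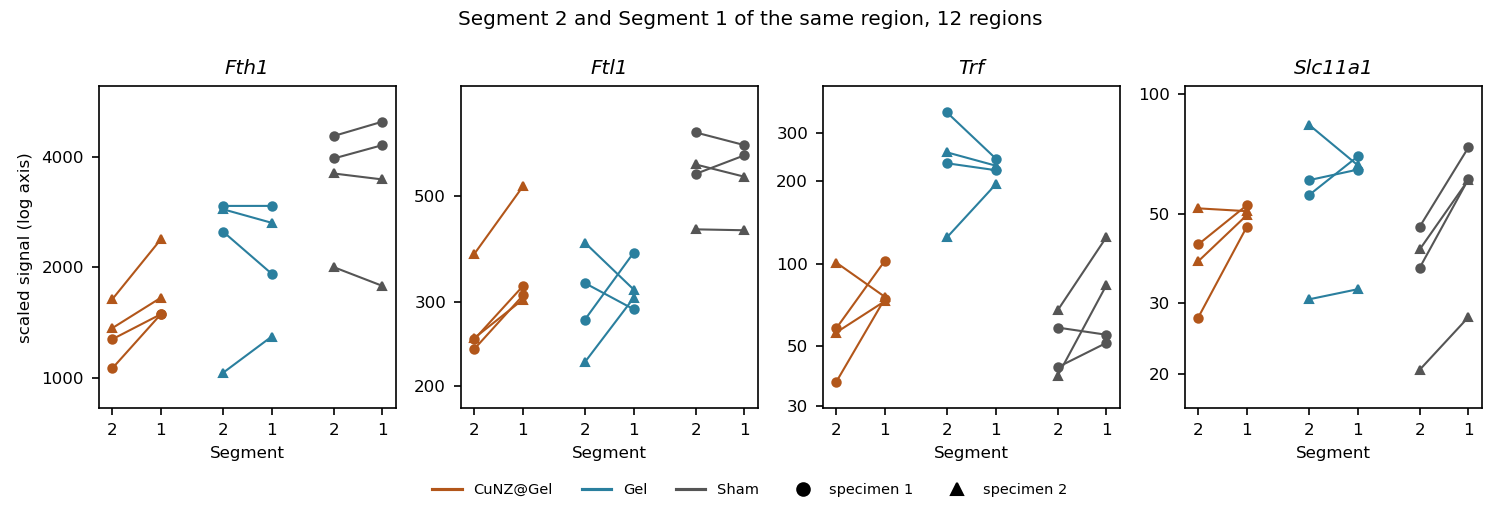
Scaled signal (log axis) of Fth1, Ftl1, Trf and Slc11a1 in Segment 2 and Segment 1 of the same region, joined by lines, for the 4 regions of each treatment; circles and triangles are specimens 1 and 2. All 4 CuNZ@Gel lines of Fth1 and of Ftl1 go down toward Segment 2, whereas lines of the other treatments run both ways.

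For Fth1, Ftl1, Slc11a1, Slc11a2, Ireb2 and Aco1, regions of 1 specimen could differ as much as treatments did. For Trf they did not, since its changes between treatments were 1.86 in Gel against Sham and -1.69 in CuNZ@Gel against Gel. The region values compare single areas, whereas the treatment changes compare specimen means of 4 areas. Within a specimen and segment, mac2 minus mac1 ran from -1.48 to 0.61 for Fth1, from -0.82 to 0.39 for Ftl1, from -1.03 to 0.78 for Trf and from -1.42 to 0.59 for Slc11a1 on the log2 scale. For those 4 genes and Aco1, at -0.93, the largest difference lay in Segment 2 of Gel specimen 2. For Slc11a2, at 0.92, and Ireb2, at 0.76, it lay in Segment 2 of CuNZ@Gel specimen 1. Fth1 was lower in mac2 in 7 of 12 such pairs and Trf in 6 of 12, so the regions had no common direction.

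The wider iron, haem and oxidative stress genes were taken from 7 lists of 80 genes, of which 78 were on the files and 77 were tested. In CuNZ@Gel against Sham 1 rose and 2 fell (3.90% of the 77), in Gel against Sham 2 rose and 2 fell (5.19%), and in CuNZ@Gel against Gel 1 rose (1.30%). Segment 2 against Segment 1 gave 1 lower (1.30%). Over all targets tested 1.31%, 2.42%, 0.943% and 1.93% were called in these comparisons, in the same order, and 4.34%, 7.85%, 3.24% and 5.49% of those above background. The median log2 changes of the 77 were -0.04, -0.09, -0.05 and -0.10 in the same order of comparisons, beside 0.04, 0.06, -0.02 and -0.01 over all targets tested. Targets above background differed from all targets in their medians. The 36 listed genes above background had medians of -0.29, -0.18, -0.10 and -0.16, beside -0.15, -0.15, -0.00 and -0.20 for the 5554 targets above background.

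The list of ferric iron reduction and iron uptake included 2 called genes. Steap1, a member of the STEAP family, had specimen means of 33.6 and 39.7 in CuNZ@Gel, 53.3 and 46.9 in Gel, and 13.4 and 16.8 in Sham. It rose by 1.68 on the log2 scale in Gel against Sham (limma adjusted p = 1.20e-10) and by 1.25 in CuNZ@Gel against Sham (limma adjusted p = 8.47e-06). Both hydrogel groups lay above both Sham specimens. Steap2, a metalloreductase for iron and copper, had 15.6 and 22.1 in CuNZ@Gel, 35.9 and 23.5 in Gel, and 14.9 and 15.7 in Sham. It rose by 0.87 in Gel against Sham (limma adjusted p = 0.0134). The other 11 genes of that list, among them Cybrd1 and the iron and zinc importer Slc39a14, did not pass.

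Bmp6, a ligand that drives hepcidin in liver, was low throughout, with specimen means of 16.1 and 13.5 in CuNZ@Gel (2 of 8 areas above background), 6.05 and 7.76 in Gel (0 of 8) and 19.5 and 26.6 in Sham (6 of 8). It fell by 1.50 on the log2 scale in Gel against Sham (limma adjusted p = 5.16e-06) and rose by 1.10 in CuNZ@Gel against Gel (limma adjusted p = 0.00494). Since no Gel area exceeded the background, the size of these changes is uncertain. Blvrb, a biliverdin reductase that acts downstream of haem breakdown, had 42.9 and 44.2 in CuNZ@Gel, 55.7 and 56.9 in Gel, and 101 and 74.0 in Sham. It fell by 0.94 in CuNZ@Gel against Sham (limma adjusted p = 0.0007278).

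Of the 14 genes of the NRF2 and BACH1 list, which governs transcription of ferritin and Hmox1, 1 fell in each hydrogel comparison with Sham, Gclm in CuNZ@Gel and Aifm2 in Gel, and edgeR and DESeq2 called 0 in both. Gclm, the modifier subunit of glutathione synthesis, had 17.4 and 15.5 in CuNZ@Gel, 15.3 and 20.8 in Gel, and 33.5 and 22.2 in Sham, and fell by 0.81 in CuNZ@Gel against Sham (limma adjusted p = 0.0387). Aifm2, a suppressor of ferroptosis, had 34.8 and 31.5 in CuNZ@Gel, 21.5 and 27.0 in Gel, and 34.8 and 46.6 in Sham, and fell by 0.73 in Gel against Sham (limma adjusted p = 0.0265). Lrp1, the receptor for haem bound to hemopexin, fell by 0.41 in Segment 2 against Segment 1 (limma adjusted p = 0.0194). The lists of chaperones and ferritin turnover (8 tested), mitochondrial iron and iron-sulfur clusters (12 tested) and haem synthesis (10 tested) had 0 genes past the threshold in any of these comparisons with limma, edgeR or DESeq2, and at most 3 of a list had an unadjusted p under 0.05 in limma.

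These calls differed in how they held. Both Steap1 calls held under all 23 alternatives. Under the same alternatives the call was lost in 2 for Bmp6 and 6 for Steap2 in Gel against Sham, in 8 for Bmp6 in CuNZ@Gel against Gel, in 6 for Blvrb, in 10 for Aifm2 and in 12 for Gclm. The Lrp1 call was lost in 8 of 20. Without Sham specimen 1 the change was 0.83 for Steap2 (limma adjusted p = 0.139), -0.72 for Blvrb (adjusted p = 0.318) and -0.53 for Gclm (adjusted p = 0.865). Without Sham specimen 2 it was -0.53 for Aifm2 (limma adjusted p = 0.426) and -0.37 for Lrp1 (adjusted p = 0.100). Without Gel specimen 1 it was 0.54 for Steap2 (limma adjusted p = 0.547), -0.58 for Aifm2 (adjusted p = 0.344), 0.88 for Bmp6 in CuNZ@Gel against Gel (adjusted p = 0.136) and -0.34 for Lrp1 (adjusted p = 0.128). Without CuNZ@Gel specimen 1 it was 0.99 for Bmp6 against Gel (limma adjusted p = 0.217), -0.92 for Blvrb (adjusted p = 0.0804) and -0.81 for Gclm (adjusted p = 0.305). Without CuNZ@Gel specimen 2 the values were -0.96 for Blvrb (limma adjusted p = 0.0530) and -0.82 for Gclm (adjusted p = 0.268).

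**Figure D5:**
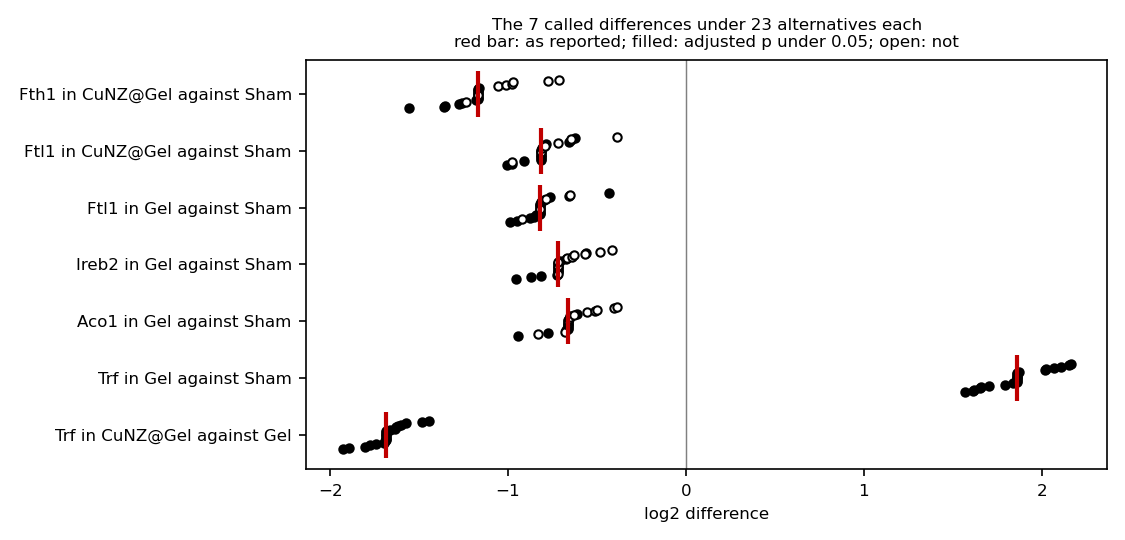
The 7 differences between treatments that passed for the members, each with its log2 value as reported (red bar) and under 23 other ways of processing (points; filled where the adjusted p stayed under 0.05). Both Trf differences stay filled throughout, and no difference crosses 0.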

How the data were processed

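GeoMx probe counts had been collected from 24 areas of rat wound sections, per the labels' protocols. The authors deposited 1 scaled signal value per target and area. How reads were counted, how values were scaled and which genome build was used is not given in the sources used here. In each area between 99.98% and 99.995% of signal values were whole multiples of the lowest value within 0.01 of a count, so whole counts were recovered. Target symbols follow mouse naming, and 9 of the 10 members equal a rat symbol of GRCr8. Fold changes come from log2(signal + 1), so those of low targets are understated.

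The filter kept 19728 targets that exceeded the negative probe in 4 or more areas. The log2 values of a specimen's 4 areas were averaged, and limma 3.58.1 (R 4.3.3) was run on the 6 specimens, with lmFit and a trended, robust eBayes. For the segments, 12 means per specimen and segment were fitted with the specimen as a block, and an F test asked whether segment differences varied with treatment. All adjusted p-values use the Benjamini-Hochberg method across the targets tested. A count test had been planned if the files held counts; since they held scaled signal, limma was used as planned for that case, with edgeR 4.0.16 and DESeq2 1.42.0 on recovered counts as alternatives. The other alternatives changed the scaling, filter, pseudocount, averaging, samples, block and test settings or left out 1 specimen. The scripts were tested on simulated data.

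All 10 members are described. Of the 7 lists of iron, haem, NRF2 and BACH1 genes (ferric reduction and uptake; haemoglobin, haem transport and breakdown; ferroxidases and systemic regulation; chaperones and ferritin turnover; mitochondrial iron; haem synthesis; NRF2 and BACH1), those past the threshold are named. Results of 1 cell type marker are not reported here. For each member above background, the 3 targets with the highest Pearson r of log2 values over the 24 areas are named. The members and lists were chosen with earlier results of these data known. Correlations of same-numbered specimens, as deviations from their group means over 5554 targets, were 0.00, -0.03 and -0.03, so the specimen numbers were not taken to pair the samples. With 2 specimens per treatment the precision is limited, and the p-values lean on a spread pooled over targets (133 prior against 3 residual degrees of freedom).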

Additional observations from a re-analysis of the deposited data

Results flagged for a closer look

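In 30 groups of 8 areas (10 genes in 3 treatments), 4 areas stood apart from the other 7 by a gap to the nearest value that was large for the range of the group. Chance alone would flag about 1 group in 20 if the 8 values were independent. Areas here share specimens and differ in depth, so that rate need not hold. Ireb2 had 36.8 in Segment 2 of mac1 in CuNZ@Gel specimen 1, where the other CuNZ@Gel areas began at 63.1 and the gap made up 0.847 of the range on the log2 scale. That area was the shallowest of all, with 86385 counts. Ireb2 had 75.3 in Segment 1 of mac1 in Gel specimen 2, where the gap was 0.656 of the range. Aco1 had 53.1 in Segment 1 of mac1 in CuNZ@Gel specimen 1, with a gap of 0.552 of the range. Tfrc had 2.04 in Segment 2 of mac2 in Gel specimen 2, with a gap of 0.587 of the range, at a level where 1 count decides the value.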

How the results depend on the processing

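The 7 called differences of the members kept their direction under all 161 alternative values, and 2 of the 7, both of Trf, stayed past the threshold throughout. Of 10 members, limma as reported called 4 in Gel against Sham, 2 in CuNZ@Gel against Sham and 1 in CuNZ@Gel against Gel. In Gel against Sham the count was 1 with edgeR, with limma without trend and robust and with mac1 areas only, and 2 with DESeq2 and with Segment 1 areas only. In CuNZ@Gel against Sham it was 0 after quantile normalization, with edgeR and with limma without trend and robust, and 1 after median scaling, with DESeq2, with mac1 or mac2 areas only and with Segment 1 areas only. In CuNZ@Gel against Gel it was 2 with Segment 2 areas only, where Fth1 joined Trf at -0.71 (limma adjusted p = 0.0199). Leaving out 1 specimen gave 1 to 4 members in Gel against Sham, 0 to 2 in CuNZ@Gel against Sham and 1 to 2 in CuNZ@Gel against Gel, with the specimen left alone in its group assumed to vary like the others. The lowest counts came without Sham specimen 1 (1 in Gel and 0 in CuNZ@Gel, each against Sham) and without CuNZ@Gel specimen 1 (0). Without Gel specimen 2, the Fth1 change in CuNZ@Gel against Gel was -0.75, with Gel then a single specimen. The interaction count was 1 with mac1 areas only, and segment counts stayed at 0 under every alternative run. The cause of these changes was not tested. Of the 33 uncalled differences, 54 of 717 alternative values changed sign and 8 passed the threshold, 4 of them Fth1 in Gel against Sham and 1 Slc11a2 in Gel against Sham (quantile scaling). With the specimen number as a replicate block, 5 members were called in Gel against Sham, Fth1 being added (limma adjusted p = 0.0377), and the block changed no other call of a member. Tfrc, Slc40a1 and Hmox1 stood at 1 to 16 counts per area. In the deepest area, with 1476499 counts, their signals were 2.65, 2.40 and 3.85, under that area's background of 12.5. Whether depth limits them was not tested.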

Other observations

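The Trf signal relative to Fth1 was also compared within single areas. On the log2 scale Trf over Fth1 averaged -4.45 ± 0.11 in CuNZ@Gel, -3.25 ± 0.07 in Gel and -5.80 ± 0.90 in Sham (SD of specimens, n = 2 each). It ran from -4.98 to -3.86 in CuNZ@Gel areas, from -3.60 to -2.73 in Gel areas and from -6.77 to -3.83 in Sham areas. No Gel area thus overlapped an area of another treatment in this ratio. Trf alone did overlap, with the lowest Gel area at 124.7 and the highest Sham area at 125.1. How many other gene ratios separate the areas likewise was not counted. Fth1 over Ireb2 averaged 4.63 ± 0.15 in CuNZ@Gel, 5.40 ± 0.49 in Gel and 5.34 ± 0.55 in Sham, with overlapping areas. Ireb2 over Aco1 averaged 0.56 ± 0.12 in CuNZ@Gel, 0.38 ± 0.27 in Gel and 0.43 ± 0.02 in Sham. These ratios were not tested.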
